A study of Mus musculus with 21 samples.

Results

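Lymphoid priming genes are described here in sorted blood-forming stem cells, abbreviated HSC, from mice of the MMTV-PyMT genotype. They are 9 genes, Flt3, Il7r, Dntt, Rag1, Notch1, Satb1, Ikzf1, Tcf3 and Bcl11a, and all 9 were found by symbol among the 13399 genes listed in both HSC tables. The list was selected on measured values: its median fold changes in active against sedentary and in transplant against active HSC were already known from these libraries. The members' levels and fold changes are therefore given as a description. Where the text counts members past a threshold of a fit over all genes, the count stands beside the share of all genes past it, and nothing is read from it.

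The series holds 21 libraries, of which 9 are from HSC and are used here, with tumour libraries not analysed here. Sedentary HSC and physically active HSC were sorted from mice at week 12, with 3 biological replicates each. Transplant HSC were sorted at week 14 from sedentary mice that had been given cells of an active mouse, also with 3 biological replicates. All 3 groups carry the MMTV-PyMT genotype, in which the mouse mammary tumour virus promoter drives the polyoma middle T oncogene in mammary epithelium, so the controls are tumour-prone mice too. The transplant group differs from both other groups in the week and the transplantation. It also differs from the sedentary group in the active donor of the cells, and from the active group in the sedentary host. These differences cannot be told apart, and transplants from a sedentary donor were not analysed here. The labels do not say how many animals went into a library, how old the mice were or which surface markers were sorted.

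Priming means that a multipotent cell transcribes low levels of genes belonging to a lineage before it is committed to that lineage. FLT3, a receptor tyrosine kinase, marks the multipotent progenitors with lymphoid potential that arise from HSC, and the IL-7 receptor then carries the survival signal of early lymphoid progenitors. Dntt and Rag1 encode enzymes that assemble antigen receptor genes in lymphoid precursors, while Satb1, Ikzf1, Tcf3 and Bcl11a encode nuclear factors needed for early lymphoid fate and Notch1 the receptor that commits cells to the T lineage. Textbook long-term HSC hold little or no FLT3 at the surface, and more FLT3 comes with lymphoid-primed progenitors. In bulk libraries, fewer cells of a type and less RNA per cell cannot be told apart.

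One active replicate label has 2 columns. They are headed P3 (6) in the sedentary and active table and P2 (6) in the active and transplant table. Whether both come from the same library was not tested. The column numbered 6 of the sedentary and active table and the column numbered 6 of the active and transplant table stand for the same labelled replicate, active replicate 2, but their recovered reads differed at 13105 of the 13399 shared genes. Active replicates 1 and 3 differed between the tables at 4 genes each. Over 10810 genes, the column 6 of the sedentary and active table lay nearest to the transplant group, with a root mean square log2 difference of 0.426, against 0.712 to active replicates 1 and 3 and 0.946 to the sedentary group. The column 6 of the active and transplant table lay nearest to the sedentary group, at 0.229, against 0.387 to active replicates 1 and 3 and 0.691 to the transplant group. Which of them is library 6 could not be settled, so both are shown apart, and the fold changes of each member that involve active HSC are given with each of them and with neither.

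Values are normalized counts, that is recovered reads divided by a size factor that puts the 10 HSC columns on one scale. Depth ran from 16405931 to 72412531 reads, and replicate 3 of each group was the deepest of its group. The 11 HSC markers were all measured and summed to between 10394 and 14583 normalized counts in the 10 columns. Kit, the stem cell factor receptor, was the largest of them in every column, at 5112 to 7261. In sedentary libraries Slamf1 was at 47.4 to 51.1 and Fgd5 at 34.3 to 72.3, while the granule progenitor marker Mpo was at 52331 to 75938. The sum therefore does not check the labelled cell type. In transplant against sedentary HSC, by limma, 2 of the 11 fell, the stem cell transcription factors Hlf (log2 fold change -1.13, adjusted p = 0.0137) and Mecom (-1.23, adjusted p = 0.0395), and 1 rose, the surface receptor Slamf1 (1.72, adjusted p = 0.0473), while limma called 0 of 11 in both comparisons with active HSC.

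Promoters of the 4 members whose levels differed most between sedentary and transplant HSC are shown because their levels were high or low in the same columns. Sequences are from RefSeq on build GRCm38.p6, from 250 bases before to 50 bases after the annotated start, written 5′ to 3′ on the strand of the gene. The windows are chr5:147400440-147400739 on the minus strand for Flt3, chr15:9529827-9530126 on the minus strand for Il7r, chr19:41029025-41029324 on the plus strand for Dntt and chr2:101649483-101649782 on the minus strand for Rag1. The Il7r window lies wholly inside the GENCODE span of the gene, chr15:9505788-9530176. The last bases of the Il7r and Rag1 windows were not found in a GENCODE transcript. Capitals mark matches on either strand to an E box (CAGNTG), the motif of E proteins such as TCF3, to the Ikaros core (TGGGAA) or to the Runx core (TGTGGT).
Flt3: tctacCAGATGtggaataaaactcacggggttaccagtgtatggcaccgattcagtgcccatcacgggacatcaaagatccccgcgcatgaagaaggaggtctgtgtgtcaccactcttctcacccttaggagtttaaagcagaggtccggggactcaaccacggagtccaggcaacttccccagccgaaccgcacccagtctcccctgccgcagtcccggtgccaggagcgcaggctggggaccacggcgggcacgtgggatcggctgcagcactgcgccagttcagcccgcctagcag
Il7r: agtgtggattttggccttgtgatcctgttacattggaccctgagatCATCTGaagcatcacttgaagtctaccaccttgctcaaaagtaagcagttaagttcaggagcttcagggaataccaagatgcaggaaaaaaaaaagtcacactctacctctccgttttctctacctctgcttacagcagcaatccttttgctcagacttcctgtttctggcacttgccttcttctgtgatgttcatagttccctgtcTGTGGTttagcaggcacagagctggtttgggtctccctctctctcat
Dntt: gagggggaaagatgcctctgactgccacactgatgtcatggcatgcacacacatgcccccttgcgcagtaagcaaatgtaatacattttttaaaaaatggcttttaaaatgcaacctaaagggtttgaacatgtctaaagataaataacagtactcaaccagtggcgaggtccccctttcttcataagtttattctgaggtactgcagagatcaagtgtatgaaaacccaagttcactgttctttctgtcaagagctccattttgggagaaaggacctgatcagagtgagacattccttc
Rag1: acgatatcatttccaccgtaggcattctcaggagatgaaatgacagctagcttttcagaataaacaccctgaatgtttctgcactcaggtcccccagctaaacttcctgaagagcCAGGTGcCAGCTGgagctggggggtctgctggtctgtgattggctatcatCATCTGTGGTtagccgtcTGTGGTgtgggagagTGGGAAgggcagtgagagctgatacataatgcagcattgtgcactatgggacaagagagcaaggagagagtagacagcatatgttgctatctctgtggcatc
Flt3 held 1 E box, Il7r held 1 E box and 1 Runx core, and Dntt held no match to any of the 3 motifs. Rag1 held 3 E boxes, 1 Ikaros core and 2 Runx cores, and the last E box shares bases with the first Runx core. All 9 members had at least 1 window, 14 in all, and 4 members held an E box, 3 an Ikaros core and 2 a Runx core. Of all 32851 RefSeq windows of this length, 51.4% held an E box, 25.6% an Ikaros core and 16.8% a Runx core. These shares are per window, while a member was counted if any of its windows held a match, so the 2 measures are not alike. A match is a description of the letters and no sign of binding.

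The cytokine receptor Flt3 (chr5:147330741-147400489, minus strand, GRCm38) was high in sedentary HSC and low in transplant HSC. It stood at 2371, 2687 and 2395 normalized counts in sedentary replicates 1, 2 and 3, at 993 and 1604 in active replicates 1 and 3, and at 120, 80.8 and 258 in transplant replicates 1, 2 and 3. The column 6 of the sedentary and active table held 60.6, below every transplant library, and the column 6 of the active and transplant table held 2145, between active replicate 3 and the sedentary libraries. Sedentary and transplant libraries did not overlap, and active replicates 1 and 3 lay between them. The transplant mean was 152.9 ± 93.0 (SD, n = 3), which is 6.15% of the sedentary mean of 2484 ± 176 (SD, n = 3).

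On the log2 scale of normalized counts plus 1, used for all fold changes here, Flt3 was lower by 4.18 in transplant than in sedentary HSC, written as a log2 fold change of -4.18 (SE 0.42). Transplant against active HSC gave -3.46 (SE 0.50), which became -1.75 with the other column numbered 6 and -3.21 with neither. Active against sedentary HSC gave -2.43 (SE 1.23), -0.72 with the other column and -0.97 with neither. The choice of column thus set the size of the active difference of Flt3, and its sign was negative in all 3 versions.

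Il7r (chr15:9505788-9530176, minus strand), the IL-7 receptor alpha chain, had a wider spread among sedentary libraries. Its levels were 118, 169 and 265 in sedentary replicates 1, 2 and 3, 69.3 and 154 in active replicates 1 and 3, and 48.0, 11.0 and 22.5 in transplant replicates 1, 2 and 3. The columns numbered 6 held 28.2 in the sedentary and active table and 270 in the active and transplant table. Active replicates 1 and 3 overlapped the sedentary range, and transplant libraries lay below both groups, while the column 6 of the sedentary and active table lay inside the transplant range. The log2 fold change was -2.87 (SE 0.57) for transplant against sedentary, -2.58 (SE 0.68) for transplant against active and -1.36 (SE 0.65) for active against sedentary HSC. With the other column numbered 6 the last 2 values were -1.51 and -0.29, and with neither they were -2.12 and -0.75.

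**Figure D1:**
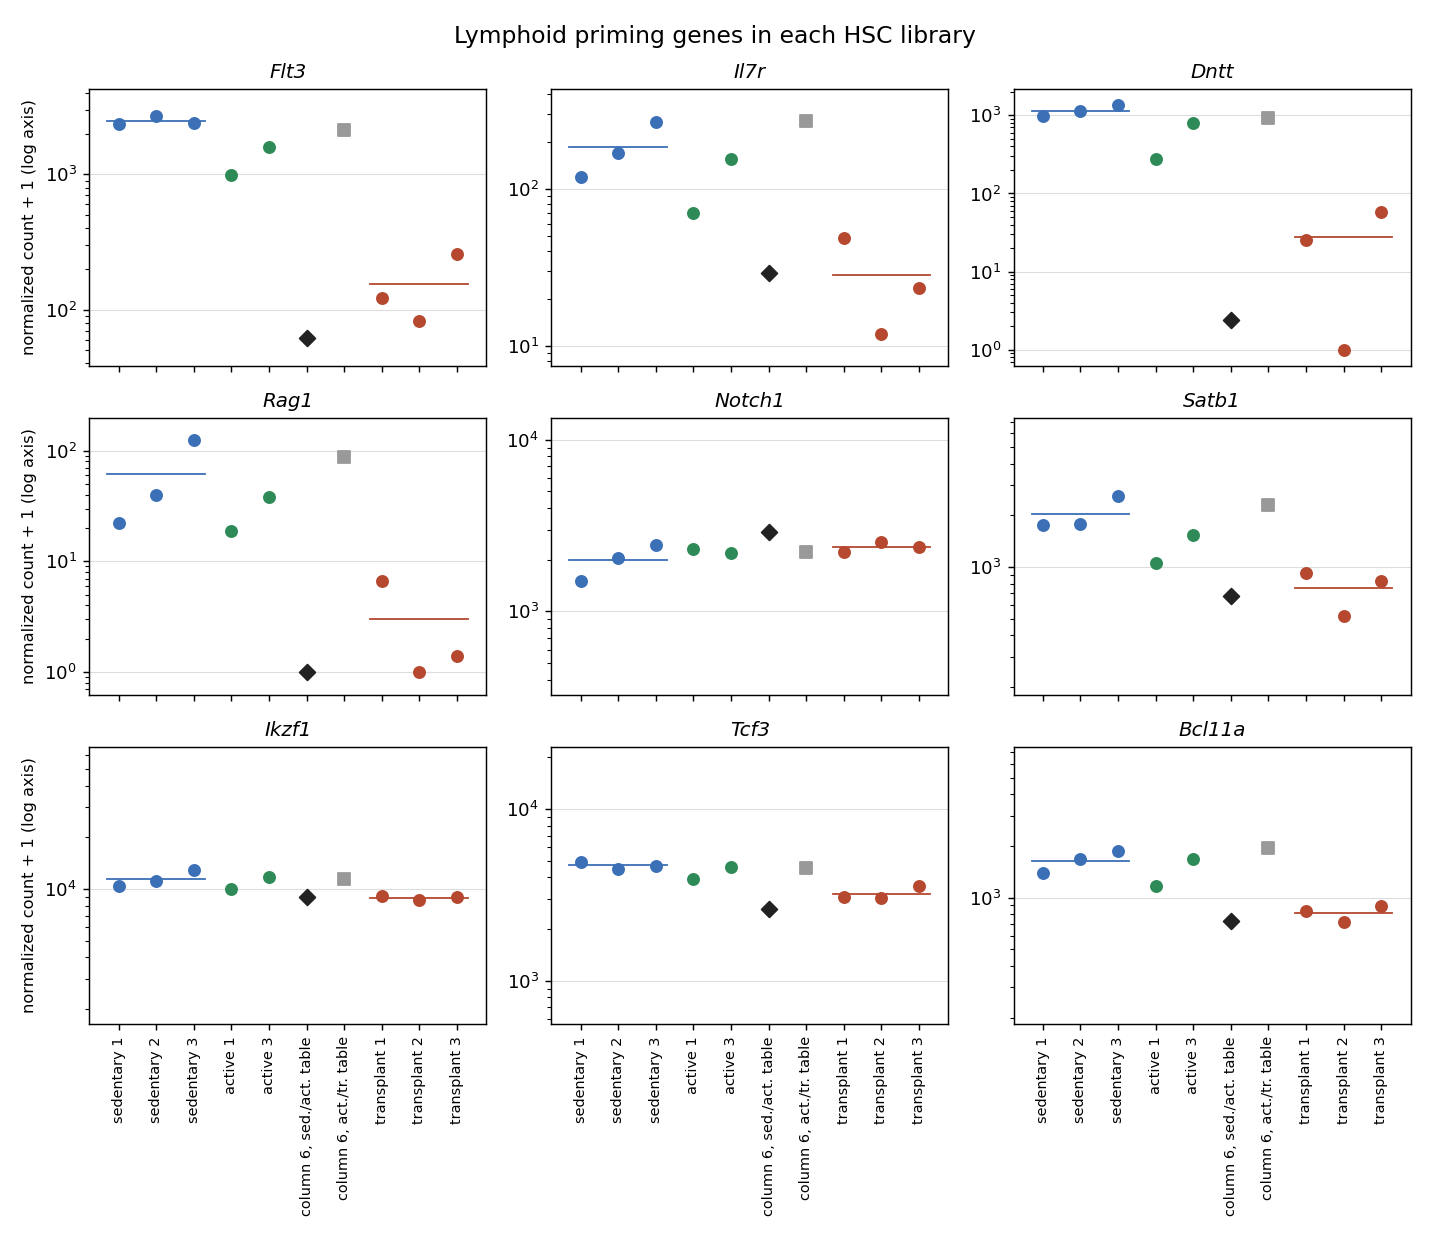
Normalized counts plus 1 (log axis, with a range of its own in each panel) of the 9 lymphoid priming genes in the 10 HSC columns. Circles are libraries (blue sedentary, green active, red transplant), the diamond and the square are the columns numbered 6 of the sedentary and active and of the active and transplant table, and horizontal lines are arithmetic means of the 3 sedentary and 3 transplant libraries. Flt3, Il7r, Dntt, Rag1, Satb1, Ikzf1, Tcf3 and Bcl11a were lower in all 3 transplant than in all 3 sedentary libraries, and Notch1 overlapped.

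Among the recombination enzymes, Dntt (chr19:41029275-41059525, plus strand) encodes terminal deoxynucleotidyl transferase, which adds untemplated bases at antigen receptor joints. It was abundant in sedentary HSC, at 973, 1120 and 1365 normalized counts in replicates 1, 2 and 3. Active replicates 1 and 3 held 276 and 788, and transplant replicates 1, 2 and 3 held 24.0, 0 and 56.4, from 17, 0 and 138 reads. The column 6 of the sedentary and active table had 1 Dntt read, a level of 1.41, whereas the column 6 of the active and transplant table stood at 915, from 679 reads. Every active column lay below the lowest sedentary library, and every transplant library lay below active replicates 1 and 3.

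The transplant mean of Dntt was 26.8 ± 28.3 (SD, n = 3), or 2.32% of the sedentary mean of 1153 ± 198 (SD, n = 3). The log2 fold changes were -6.66 (SE 1.49) for transplant against sedentary, -5.70 (SE 1.55) for transplant against active and -3.82 (SE 2.15) for active against sedentary HSC. Because libraries at 0 or 1 read enter them, these values depend on the pseudocount and ran from -5.35 with 10 to -7.79 with 0.1 in transplant against sedentary HSC. Without transplant replicate 2, the library with no Dntt read, transplant against sedentary gave -4.91 and transplant against active -3.95. With the other column numbered 6 transplant against active was -2.84 (SE 2.62), and with neither -5.37. Active against sedentary became -0.97 with the other column numbered 6 and -1.29 with neither.

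Rag1 (chr2:101638282-101649501, minus strand) encodes a subunit of the recombinase that cuts antigen receptor genes, and its exons overlap those of B230118H07Rik on the same strand, so reads could be shared. It was the lowest member, at 21.3, 38.8 and 122.9 in sedentary replicates 1, 2 and 3 and at 17.9 and 37.2 in active replicates 1 and 3. Transplant replicates 1, 2 and 3 held 4, 0 and 1 reads, which is 5.65, 0 and 0.409 normalized counts. The columns numbered 6 held 0 reads in the sedentary and active table and 65 reads, or 87.6 normalized counts, in the active and transplant table. Sedentary replicate 3 alone accounted for most of the sedentary mean of 61.0 ± 54.3 (SD, n = 3).

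The log2 fold change of Rag1 was -4.51 (SE 0.93) for transplant against sedentary HSC, and -6.14 or -2.32 with a pseudocount of 0.1 or 10. Transplant against active HSC gave -4.25 (SE 0.89), or -2.09 with the other column numbered 6 and -3.67 with neither. Active against sedentary HSC gave -2.42 (SE 1.48), and -0.26 with the other column and -0.83 with neither. At these read counts only the order of the groups can be read, with transplant libraries below the sedentary and the active replicates 1 and 3, and those 2 groups overlapping.

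Notch1 (chr2:26457903-26516663, minus strand), the receptor of T lineage commitment, was the member that did not separate the groups. Its levels were 1504, 2051 and 2450 in sedentary replicates 1, 2 and 3, 2305 and 2188 in active replicates 1 and 3, and 2204, 2535 and 2384 in transplant replicates 1, 2 and 3. The columns numbered 6 held 2920 in the sedentary and active table and 2204 in the active and transplant table. All groups overlapped, with log2 fold changes of 0.27 (SE 0.20) for transplant against sedentary, 0.087 (SE 0.11) for transplant against active and 0.32 (SE 0.23) for active against sedentary HSC. With the other column numbered 6 the last 2 values were -0.048 and 0.19, and with neither they were 0.078 and 0.19. Exons of 0610009E02Rik and Gm13568 overlap Notch1 on the opposite strand, and the strand setting of the counting is not given in the sources used here.

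The nuclear factors differed by smaller amounts. Satb1 (chr17:51736187-51833290, minus strand), a genome organizer that holds chromatin loops, stood at 1743, 1776 and 2575 in sedentary replicates 1, 2 and 3 and at 1050 and 1529 in active replicates 1 and 3. Transplant replicates 1, 2 and 3 held 920, 515 and 826, and the columns numbered 6 held 676 in the sedentary and active table and 2307 in the active and transplant table. Satb1 was thus lower in active replicates 1 and 3 than in any sedentary library, but the other column numbered 6 lay inside the sedentary range. Log2 fold changes were -1.45 (SE 0.28) for transplant against sedentary, -1.08 (SE 0.36) for transplant against active and -0.96 (SE 0.34) for active against sedentary HSC. The last 2 became -0.49 and -0.37 with the other column numbered 6, and -0.79 and -0.66 with neither. Exons of Gm36931 on the same strand and Gm6934 on the opposite strand overlap Satb1.

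Bcl11a (chr11:24078056-24174123, plus strand), a zinc finger repressor needed for lymphoid development, was at 1388, 1684 and 1855 in sedentary replicates 1, 2 and 3 and at 1172 and 1683 in active replicates 1 and 3. Transplant replicates 1, 2 and 3 held 839, 716 and 892, and the columns numbered 6 held 731 in the sedentary and active table and 1939 in the active and transplant table. Transplant libraries were tight and below every other column except the first of these. The transplant mean was 49.7% of the sedentary mean, with a log2 fold change of -1.005 (SE 0.158). Active against sedentary HSC gave -0.53 (SE 0.33), with -0.060 for the other column numbered 6 and -0.22 for neither. Transplant against active HSC gave -0.94 (SE 0.22), with -0.48 and -0.79 in the same order. An exon of 4930538E20Rik overlaps Bcl11a on the opposite strand.

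Tcf3 (chr10:80409514-80433647, minus strand), which encodes the E proteins E12 and E47, was at 4922, 4500 and 4656 in sedentary replicates 1, 2 and 3 and at 3928 and 4601 in active replicates 1 and 3. Transplant replicates 1, 2 and 3 held 3072, 3022 and 3545, and the columns numbered 6 held 2628 in the sedentary and active table and 4550 in the active and transplant table. The transplant mean was 68.5% of the sedentary mean, with a log2 fold change of -0.55 (SE 0.12). Tcf3 had -0.44 (SE 0.13) in transplant against active HSC, with -0.18 for the other column numbered 6 and -0.41 for neither, and -0.37 (SE 0.23) in active against sedentary HSC, with -0.11 and -0.14.

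Ikzf1 (chr11:11685003-11772926, plus strand), which encodes Ikaros, was at 10385, 11154 and 12860 in sedentary replicates 1, 2 and 3 and at 9989 and 11702 in active replicates 1 and 3. Transplant replicates 1, 2 and 3 held 9100, 8592 and 8948, and the columns numbered 6 held 8972 in the sedentary and active table and 11429 in the active and transplant table. Ikzf1 was the most abundant member and differed least after Notch1, with a transplant mean at 77.4% of the sedentary mean and a log2 fold change of -0.36 (SE 0.12). Ikzf1 had -0.31 (SE 0.11) in transplant against active HSC, with -0.19 for the other column numbered 6 and -0.28 for neither, and -0.17 (SE 0.16) in active against sedentary HSC, with -0.052 and -0.079.

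Counted over the list, 8 of 9 members were lower in every transplant than in every sedentary library, where 18.4% of 13348 genes showed this. By limma, 7 members passed an adjusted p of 0.05 as lower in transplant HSC, all but Ikzf1 and Notch1, against 3.7% of genes called lower and 7.92% called higher. Without sedentary replicate 1, 2 or 3 the count was 2, 1 or 2 members, where 0.569%, 0.405% or 2.79% of genes were called lower. Without transplant replicate 1, 2 or 3 it was 3, 2 or 4 members, where 1.09%, 0.614% or 4.67% of genes were, and within replicates 1 and 2 it was 3 members against 4.27%. The median log2 fold change of the members was -1.45, or -1.35 within replicates 1 and 2, the shallower libraries, and that of all genes was -0.00037. Within replicates 1 and 2 Flt3 had -4.67 and Dntt -7.71. Since the list was chosen with these libraries in view, the counts are printed beside the background only.

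In transplant against active HSC, 8 of 9 members were lower in all transplant libraries, against 12.2% of 13398 genes, and Notch1 overlapped. With active replicates 1 and 3 alone the count was also 8 members, against 14.5% of genes, whereas the other column numbered 6 left 0 members, against 3.45%. limma called 0 members, with 0.0448% of genes called lower, and edgeR called 1 gene in all, which was no member. DESeq2 called 7 members, all but Ikzf1 and Notch1, with 2.61% of genes called lower. Deviations from group means correlated by 0.111, 0.122 and 0.337 between same-numbered libraries here, and by 0.114 between active replicate 1 and transplant replicate 2. The fit with the replicate block called 0 of all genes. The members' median was -1.08, -0.49 with the other column, -0.79 with neither and -1.17 within replicates 1 and 2, beside -0.00078 for all genes.

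In active against sedentary HSC, 3 of 9 members, Flt3, Dntt and Satb1, were lower in all active libraries, against 9.16% of 13399 genes. With active replicates 1 and 3 alone the same 3 members did not overlap, against 10.9% of genes. With the other column numbered 6 Flt3 and Dntt did not overlap, against 3.16% of genes. Neither limma, with 0% of genes called lower and 1245 genes at an unadjusted p under 0.05, nor edgeR nor DESeq2, with 0.0672% of genes called lower, called a member. The members' median was -0.96, -0.26 with the other column, -0.66 with neither and -1.06 within replicates 1 and 2, beside 0.0060 for all genes. The 3 comparisons share libraries, so their values for a member are not independent of each other.

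**Figure D2:**
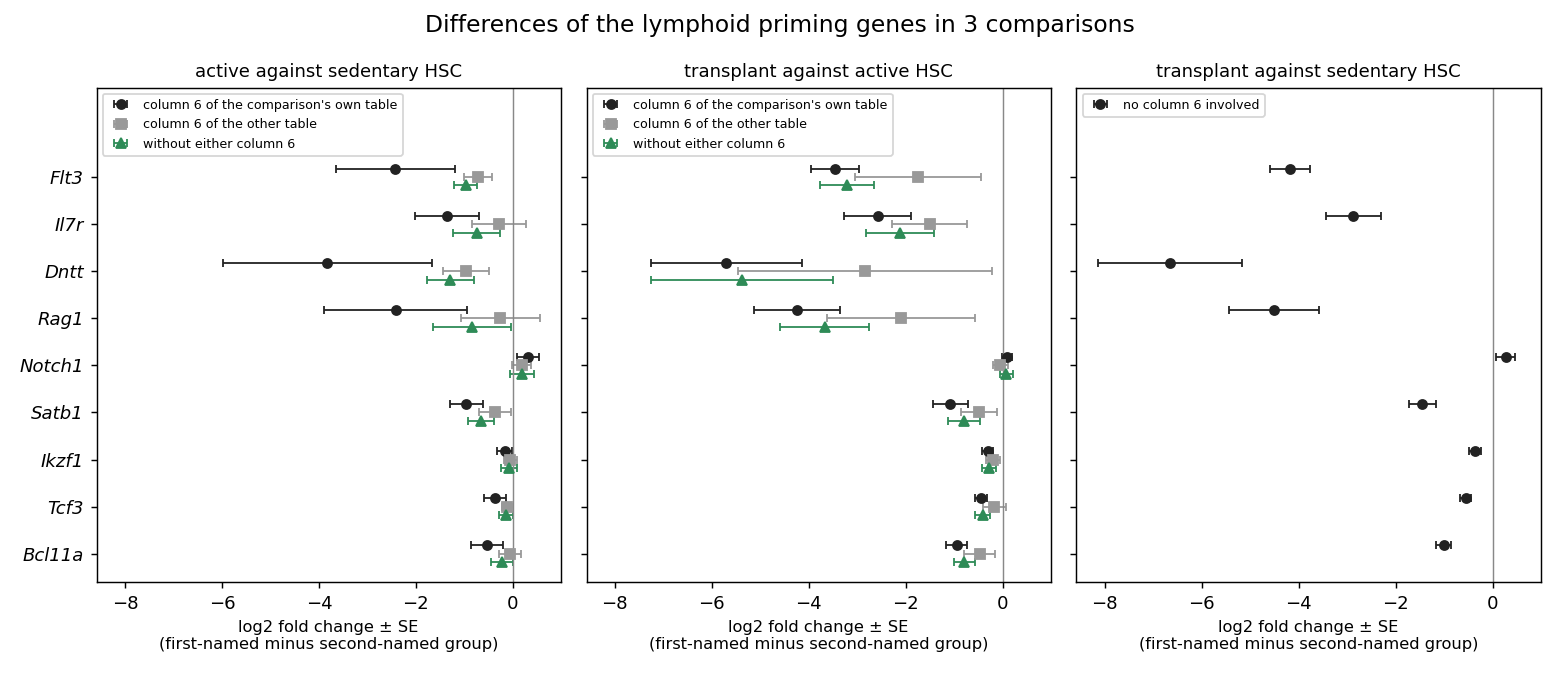
Log2 fold change with its standard error for the 9 lymphoid priming genes in the 3 HSC comparisons (horizontal axis, 3 libraries a group, or 2 active libraries for the triangles). Circles use the column numbered 6 of the comparison's own table, squares the other one and triangles neither. In active against sedentary HSC the value of Dntt runs from -3.82 with its own column to -0.97 with the other, and Notch1 is the only member above 0 in all 3 versions.

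Neutrophil and granule progenitor markers were higher in the columns where most members were lower. The 7 neutrophil markers summed to 939 to 1571 normalized counts in sedentary libraries, to 9725 and 1969 in active replicates 1 and 3, and to 21515 to 25894 in transplant libraries. The columns numbered 6 summed to 116140 in the sedentary and active table, the highest of all, and to 1665 in the active and transplant table. All 7 neutrophil markers and all 5 granule progenitor markers rose in transplant against sedentary HSC by limma, with median log2 fold changes of 4.36 and 1.65. Of 6 megakaryocyte and erythroid markers 3 rose, Pf4, Itga2b and Gp9. Gata1, Klf1 and Car1 did not pass, with log2 fold changes of 1.86, 0.26 and 0.85. Granule progenitor markers summed to 81720 to 119800 in sedentary, 240290 and 146060 in active replicates 1 and 3, and 287910 to 374730 in transplant libraries, with 323590 and 85132 in the columns numbered 6. Megakaryocyte and erythroid markers summed to 1923 to 3678 in sedentary libraries and to 3718 and 4983 in active replicates 1 and 3. Their sums were 6664 to 18548 in transplant libraries, with 16979 and 2730 in the columns numbered 6. The columns with the lowest Flt3 were thus those with the highest neutrophil, granule progenitor, and megakaryocyte and erythroid sums. The part of any of these cells in the members' differences was not tested.

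Markers of lymphoid cells were mostly low or not among the shared genes. Of the B cell markers 4 were measured, while Cd79a, Ms4a1, Vpreb1 and Vpreb3 were not among the 13399 shared genes. The 4 summed to 197 to 252 in sedentary, 222 and 200 in active replicates 1 and 3 and 110 to 154 in transplant libraries, almost wholly from Cd79b, with 76.1 and 186 in the columns numbered 6. Blk and Mzb1 had 0 reads in every transplant library and at most 32 and 11 reads in any other column, and limma called Blk, a B cell kinase, lower in transplant than in active HSC (adjusted p = 0.0183). That call was lost with the replicate block and without active replicate 2, which each left 0 of all genes called, and with the other column numbered 6, where Blk had 0 reads, and also without transplant replicate 1 or 2. Of 7 T cell markers Lck and Cd5 were measured and Cd3d, Cd3e, Cd3g, Cd4 and Cd8a were not, with sums of 196 to 308 in sedentary, 130 and 158 in active replicates 1 and 3, 75.9 to 113 in transplant libraries and 77.5 and 221 in the columns numbered 6. Lck fell in transplant against sedentary HSC, with a log2 fold change of -1.34 (limma adjusted p = 0.0353).

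Of 5 NK cell markers 2 were measured, and they summed to 1340 to 1803 in sedentary, 1936 and 1631 in active replicates 1 and 3, 3144 to 3865 in transplant libraries and 3000 and 1167 in the columns numbered 6, almost wholly from Nkg7. Klrk1, the other measured NK marker, went the opposite way, at 1.64 to 15.5 in sedentary and 0 to 1.41 in transplant libraries. It was at 14.3 and 19.4 in active replicates 1 and 3 and at 4.23 and 5.39 in the columns numbered 6. Its log2 fold change in transplant against sedentary HSC was -1.49 (SE 0.80, limma adjusted p = 0.256). Gzma, Klrb1c and Ncr1 were not among the shared genes. The 5 plasmacytoid dendritic cell markers summed to 7424 to 8049 in sedentary, 7037 and 6204 in active replicates 1 and 3, 3843 to 4137 in transplant libraries and 3240 and 7406 in the columns numbered 6. Siglech, the defining marker of these cells, was at 8.18 to 28.5 in sedentary and 0 to 6.54 in transplant libraries, from at most 57 reads. Its log2 fold change there was -2.12 (SE 0.89, limma adjusted p = 0.168). The part of any of these cells was not tested.

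**Figure D3:**
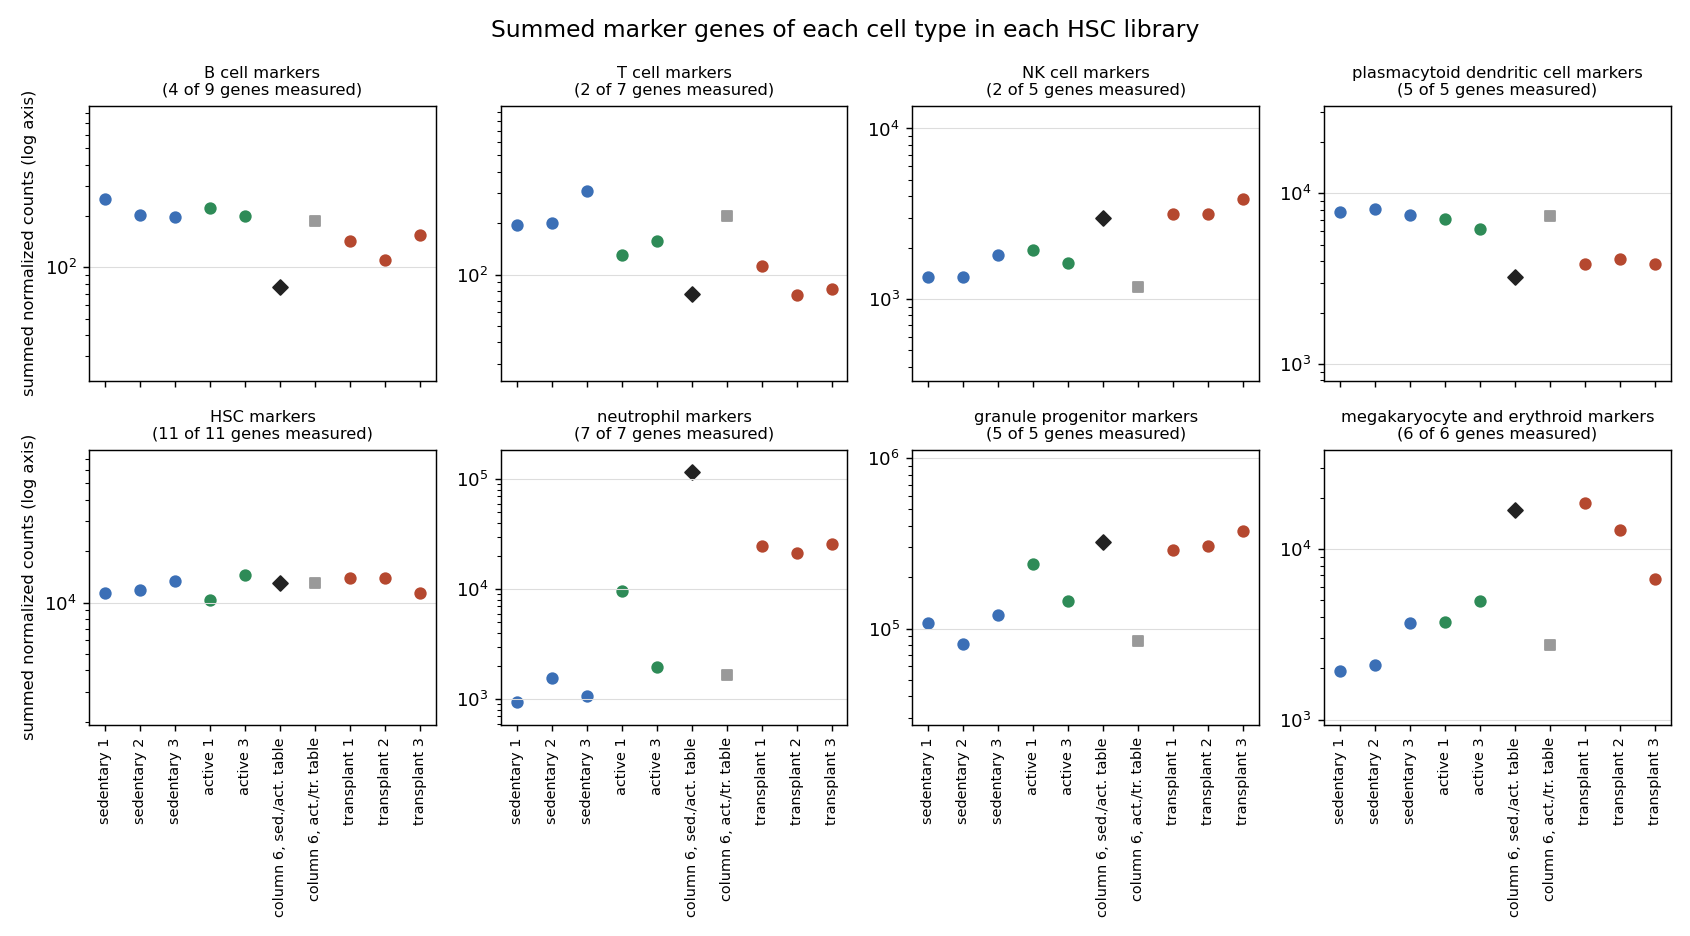
Summed normalized counts (log axis, with a range of its own in each panel) of the markers of 8 cell types in the 10 HSC columns. Colours and symbols are those of the plot of members by library. The column 6 of the sedentary and active table has the highest neutrophil sum, 116140, and HSC markers lie between 10394 and 14583.

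Members were compared with each other per length, as normalized counts per kilobase of exon. The length joins every annotated exon of a gene, from 2.29 kilobases for Dntt to 19.0 for Satb1. It is not that of the transcript in use in these cells, so the order depends on this choice. In sedentary HSC the order was Ikzf1 at 1985 ± 219, Tcf3 at 1162 ± 52.9, Dntt at 502.9 ± 86.5, Flt3 at 402.2 ± 28.5, Notch1 at 140.6 ± 33.3, Bcl11a at 124.7 ± 17.9, Satb1 at 106.8 ± 24.8, Il7r at 39.5 ± 16.1 and Rag1 at 9.23 ± 8.23 (SD, n = 3 each). The ranges of the neighbours Dntt and Flt3 overlapped, since Dntt's lowest library, at 424.5, was below Flt3's highest, at 435.1. Notch1, Bcl11a and Satb1 also overlapped, as ranges of 105.7 to 172.1, 105.4 to 140.8 and 91.6 to 135.3. In transplant HSC Dntt at 11.7 ± 12.3 and Flt3 at 24.8 ± 15.1 (SD, n = 3 each) had means below those of Notch1, Bcl11a and Satb1, which were at 166.8 ± 11.6, 61.9 ± 6.82 and 39.6 ± 11.1. Here the ranges of Flt3, up to 41.7, and Satb1, from 27.1, overlapped. The order of the abundant factors Ikzf1 and Tcf3 was the same in both groups.

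Genes of the members' pathways were taken from 7 lists of 73 genes, of which 66 were tested. In transplant against sedentary HSC 3 of the 66 rose (4.55%) and 8 fell (12.1%) by limma, against 7.92% and 3.7% of all genes, with a median log2 fold change of 0.0086. In active against sedentary and in transplant against active HSC limma called 0 of 66, with 5 and 18 at an unadjusted p under 0.05. There DESeq2 called 0 and 11 of the 66, and edgeR called 0 in both. With the other column numbered 6 limma called 0 of 66 in both comparisons, with 0 at an unadjusted p under 0.05 in either.

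Rag2, the partner of RAG1 in the recombinase, fell in transplant against sedentary HSC, from 27.8, 30.0 and 62.0 in sedentary replicates 1, 2 and 3 to 0, 0 and 2.04 in transplant replicates 1, 2 and 3. Its log2 fold change was -4.72 (SE 0.54, limma adjusted p = 0.0113), and the columns numbered 6 held 0 and 43.1 in the sedentary and active and the active and transplant table. The other 7 of 8 recombination genes, which repair DNA ends in all cells, did not pass, and Xrcc6, a Ku subunit, was the nearest with -0.55 (limma adjusted p = 0.0887). Of 12 receptor signalling genes 1 passed: Jak3, the kinase of the common gamma chain that serves the IL-7 receptor, fell with a log2 fold change of -0.82 (SE 0.16, limma adjusted p = 0.0344). Jak3 was at 5305, 6065 and 4224 in sedentary and at 2737, 2967 and 3065 in transplant replicates 1, 2 and 3.

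None of 12 tested Notch pathway genes and none of 4 other Ikaros family genes passed in any of the 3 comparisons by limma, and the Notch list's median was 0.18 in transplant against sedentary HSC. At an unadjusted p under 0.05 there were 0, 2 and 2 Notch genes and 0 Ikaros family genes in active against sedentary, transplant against active and transplant against sedentary HSC, and DESeq2 called Jag1 in the last of these. Jag1, a Notch ligand, had the largest difference of the Notch list there, 1.78 (SE 0.67, limma adjusted p = 0.136). Of 5 tested E protein and Id genes Tcf4, the E protein E2-2 of plasmacytoid dendritic cells, fell with a log2 fold change of -0.85 (SE 0.16, limma adjusted p = 0.0286). Id2, an inhibitor of E proteins, had 0.48 (limma adjusted p = 0.181). So 1 E protein gene of this list passed, and no Id gene did. The member Tcf3, which also encodes E proteins and is not in this list, passed as lower too (limma adjusted p = 0.038).

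Of 15 tested lymphoid transcription factors 3 fell and 2 rose in transplant against sedentary HSC. Bach2, a repressor needed in lymphocytes, fell from 103, 122 and 159 in sedentary to 18.4, 14.7 and 26.6 in transplant replicates 1, 2 and 3, a log2 fold change of -2.64 (SE 0.26, limma adjusted p = 0.00901). Tox, a nuclear factor of T and innate lymphoid development, fell with -1.75 (SE 0.21, limma adjusted p = 0.012), and Irf8, a factor of dendritic cells, monocytes and B cells, fell with -1.48 (SE 0.15, limma adjusted p = 0.00912). The risers act in more than lymphoid cells: Gfi1, a repressor also needed for neutrophils, rose with 1.52 (SE 0.17, limma adjusted p = 0.0105), and Ets1, of T and NK cells, rose with 1.48 (SE 0.28, limma adjusted p = 0.0325). In the column 6 of the sedentary and active table Bach2 was at 14.1 and Gfi1 at 3522, both inside or beside the transplant range, and in that of the active and transplant table they were at 154 and 1095, inside the sedentary range.

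Of 10 early lymphoid surface and signalling genes 2 fell and 1 rose. Cd27, a TNF receptor family member that rises with lymphoid priming, fell from 1410, 1463 and 1047 in sedentary to 193, 293 and 286 in transplant replicates 1, 2 and 3, a log2 fold change of -2.35 (SE 0.22, limma adjusted p = 0.00883). Ccr7, a chemokine receptor of lymphocytes and dendritic cells, fell with -2.64 (SE 0.61, limma adjusted p = 0.0484), and Cd52, a glycoprotein of lymphocytes and other leukocytes, rose with 1.32 (SE 0.15, limma adjusted p = 0.0113). Ly6d, which marks B-biased lymphoid progenitors, had -3.34 (SE 1.34, limma adjusted p = 0.154) with one transplant library at 0. In all 6 fits that left out 1 library, Bach2, Cd27, Gfi1, Irf8 and Rag2 were called. Without sedentary replicate 2 those 5 were the only ones, and this was the one fit without Tox and Cd52. Ets1 was not called without replicate 1 or 2 of either group, Ccr7 was called only without transplant replicate 2 or 3, Tcf4 only without transplant replicate 3 and Jak3 only without sedentary replicate 3.

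**Figure D4:**
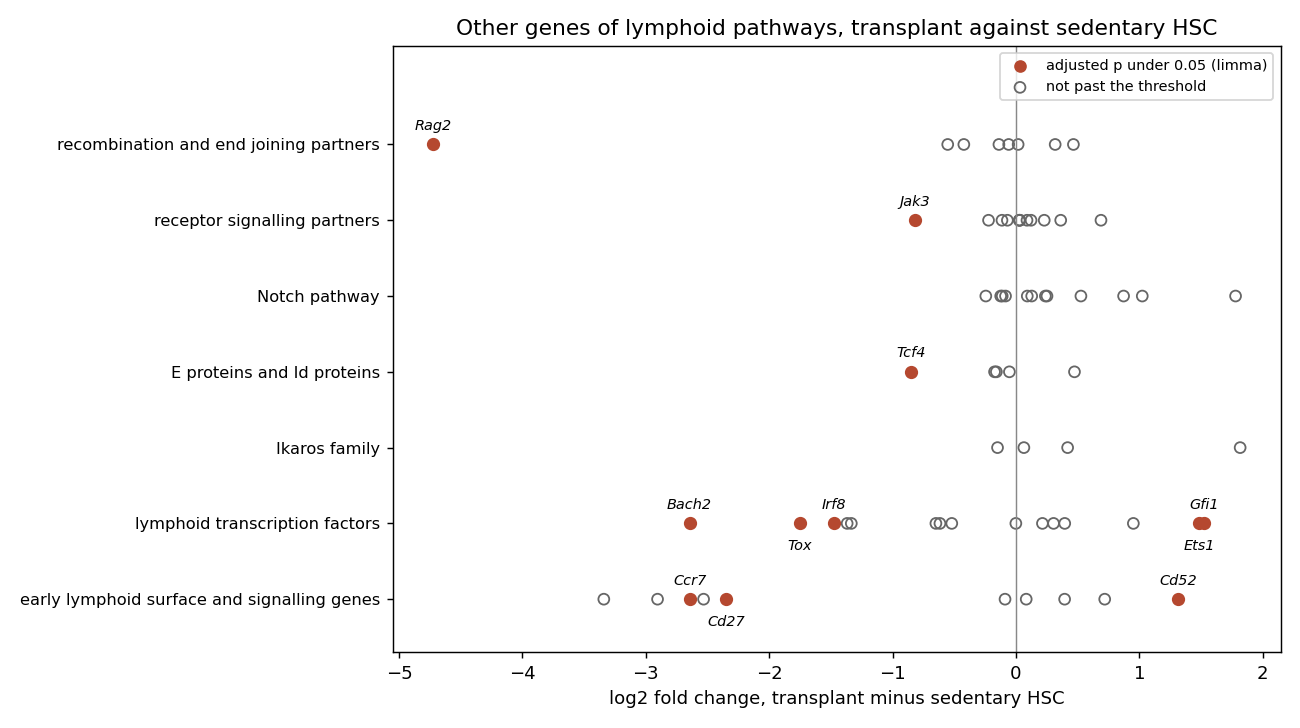
Log2 fold change of transplant against sedentary HSC (horizontal axis) for each tested gene of the 7 pathway lists, 1 point a gene. Filled points are the 11 genes with a limma adjusted p under 0.05, and open points did not pass. Of the filled points 8 lie below 0, with Rag2 at -4.72 the lowest, and 3 above.

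The genes whose pattern over the 8 libraries not numbered 6 was most like that of Flt3 were found among 10792 genes with a mean of at least 50 over them, by the root mean square difference of centred log2 values. They were Kcng1 at 0.288, Prdm16 at 0.329, Mn1 at 0.491, Moxd1 at 0.573 and Cox6a2 at 0.593. Kcng1, a potassium channel subunit, had 113.7 ± 18.0 normalized counts in sedentary and 4.35 ± 4.10 in transplant HSC (SD, n = 3 each), and 45.4 and 59.1 in active replicates 1 and 3. Prdm16, a transcription regulator of stem cells, had 144.3 ± 47.6 and 10.7 ± 6.05 (SD, n = 3 each). The columns numbered 6 did not treat them alike: in the sedentary and active table Kcng1 was at 2.82 and Prdm16 at 122.6, and in the active and transplant table they were at 121.3 and 133.5. Il7r was the member nearest to Flt3, at rank 16, followed by Satb1 at rank 78 and Bcl11a at rank 149.

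The genes most like Dntt were Klhl30 at 0.953, Kcng1 at 1.46, Cox6a2 at 1.54, Ly6d at 1.64 and Flt3 at 1.67, so distances were larger than for Flt3. Klhl30, a kelch-like protein gene, had 158.3 ± 36.2 in sedentary and 6.77 ± 6.10 in transplant HSC (SD, n = 3 each), with 4.23 and 140.2 in the columns numbered 6 of the sedentary and active and of the active and transplant table. Il7r was at rank 13, and Notch1, at rank 7818, was the member least like Dntt. These libraries share their groups and depths, so likeness is a description of 8 libraries.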

How the data were processed

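RNA was measured by sequencing in sorted HSC, with RNA from a micro-scale column kit and libraries from a stranded mRNA kit, per the labels' protocols. The authors deposited a normalized signal per gene in 1 table a comparison, made with DEBrowser per the labels. The genome build is mm10, per the submitters' processing notes, while the aligner, counter, annotation and normalization are not given in the sources used here. Every deposited value was a whole multiple of 1 step per column, and whole reads came out for 100% of values (tolerance 0.1 read). Reads of both HSC tables were joined on 13399 symbols and scaled together by the median of ratios, so the printed levels are not the deposited ones. Deposited totals gave 16405931 to 72412531 reads a library; reads carry no molecular identifiers.

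Each comparison was fitted on its own 6 libraries with limma 3.58.1 on log2(value + 1), for genes whose mean reached 1 in 1 of the groups, with Benjamini-Hochberg adjustment over all genes tested and a threshold of 0.05. Active against sedentary used the column numbered 6 of the sedentary and active table, and transplant against active that of the active and transplant table. Alternatives were edgeR 4.0.16 and DESeq2 1.42.0 on recovered reads, TMM scaling, other filters and pseudocounts, deposited values, the other column numbered 6, the replicate block, replicates 1 and 2 only and leaving out each library. Only the limma fit of transplant against sedentary HSC was tested on simulated data. Labels call the replicates biological, without naming animals.

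Same-numbered libraries were checked for pairing by correlating their deviations from group means across genes. In transplant against active HSC the correlations were 0.111, 0.122 and 0.337, all over 0.1, the limit of the rule for pairing. Active replicate 1 with transplant replicate 2 had 0.114, so these values do not settle whether the numbers pair the libraries. Printed standard errors are from the fits without the replicate block. In the other comparisons at least 1 of the 3 was below 0.1.

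The members and lists were chosen with earlier results of these data known. Named genes were all 9 members, up to 3 list genes a comparison with the smallest p past the threshold, up to 2 with the largest difference and a mean of at least 50, and the 5 most like Flt3 and Dntt. Kit, Cd79b, Siglech, Cd5, Mzb1, Klrk1 and Ets1 were named after their values were seen. Gene positions are from GENCODE M21 (GRCm38).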

Additional observations from a re-analysis of the deposited data

How the results depend on the processing

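The count of genes past the threshold in active against sedentary HSC was 0 with limma under every alternative run, the replicate block and each left-out library included, and 255 with DESeq2. In transplant against active HSC it was 7, against 1095 with DESeq2, 1 with edgeR, 0 with the replicate block, 0 with replicates 1 and 2 only and 1 with the other column numbered 6. Leaving out 1 library gave 0 to 83 genes, with 83 without active replicate 1, 21 without transplant replicate 3, 4 without active replicate 3, 1 without transplant replicate 1 and 0 without replicate 2 of either group. In transplant against sedentary HSC it was 1551, against 2569 with edgeR, 3187 with DESeq2 and 96 with the replicate block, and 236 to 1667 leaving out 1 library (236, 257, 296 and 467 without sedentary replicate 2, transplant replicate 2, sedentary replicate 1 and transplant replicate 1). The cause was not tested. With the block 0 members and 2 of 66 pathway genes, Bach2 and Rag2, were past the threshold in that comparison, where numbers did not pair the libraries. The members' log2 fold changes kept their sign in 153 of 153, 152 of 153 and 135 of 135 recomputed values in the 3 comparisons, the exception being Notch1 with the other column in transplant against active HSC. Levels of Rag1 in transplant HSC rest on 4, 0 and 1 reads.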
